A study of Mus musculus with 12 samples.

Results

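The 36 genes described here encode the machinery that builds the autophagosome and the receptors that load cargo into it. They were chosen by name, and probes were matched to them through the RefSeq accession of each probe. Of the 36, 34 had a probe, all 34 were well above background on every array, and Atg9a and Gabarapl2 were not analysed here. The 34 stand among 19664 genes tested on 8 arrays and 25522 genes tested on 12 arrays. Of the 19664, 12530 had a gene symbol, and the rest were counted as genes under the accession of their probe. They needed to be well above background on only 2 of the 8 arrays. The shares of all genes given below therefore cover a wider kind of entry than the members. Expression was measured on 12 one-colour Agilent arrays of cultures of NIH3T3, an established line of mouse embryonic fibroblasts. The groups were 2 µM PP242, 50 nM rapamycin and the solvent DMSO alone, each for 18 h and each with 4 arrays from what the design text calls independent experiments. The treatment protocol gives the PP242 dose in mM, whereas the design text and the characteristics give 2 µM, which is used here. All groups shared 1 cell line, 1 medium and 1 time, so nothing here speaks of other cells or earlier hours, and the doses of the compounds differed.

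Autophagy encloses cytoplasm in a double membrane and delivers it to the lysosome. The ULK kinase complex starts the process, a lipid kinase complex around Beclin 1 marks the membrane, and WIPI and ATG2 proteins feed it with lipid. A pair of ubiquitin-like conjugation systems then attach the ATG8 proteins (the LC3 and GABARAP families) to the membrane, where cargo receptors bind them. The kinase mTOR in its complex mTORC1 phosphorylates ULK1 and ATG13 and so restrains autophagy, a control that acts on proteins, and it also keeps TFEB, a transcription factor of lysosomal and autophagy genes, out of the nucleus. Rapamycin inhibits part of the activity of mTORC1, and PP242 competes with ATP in the mTOR kinase and acts on mTORC1 and mTORC2. The arrays measure RNA only, and neither LC3 lipidation nor autophagic flux.

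Promoters are shown for the members in which a letter search found a match, because TFEB and its relatives bind E-boxes. RefSeq windows of 300 bases (250 before to 50 after the start, build GRCm38.p6) were matched for 30 of the 36 genes. The letters searched on both strands were CACGTG, the E-box core, TCACGTG, the longer form that contains it, and GTAAACA, a FoxO motif. CACGTG was present in 4 of the 30 members (13.3%), against 8.09% of 27025 genes with a window. TCACGTG was present in 3 of the 30 (10%), against 4.29% of all genes, and GTAAACA in 0 of the 30, against 4.05% of all genes. The 4 windows follow, 5′ to 3′ on the gene's strand, with the E-box letters in capitals: Atg14 at chr14:47568385-47568684 (minus strand), Atg7 at chr6:114670846-114671145 (plus strand), Atg3 at chr16:45158579-45158878 (plus strand) and Atg5 at chr10:44268089-44268388 (plus strand).
Atg14: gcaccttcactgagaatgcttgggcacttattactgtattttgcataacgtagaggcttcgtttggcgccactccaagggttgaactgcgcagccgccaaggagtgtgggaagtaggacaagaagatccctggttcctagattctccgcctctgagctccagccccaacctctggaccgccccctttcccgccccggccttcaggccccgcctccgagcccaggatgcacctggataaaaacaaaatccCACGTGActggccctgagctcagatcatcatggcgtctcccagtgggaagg
Atg7: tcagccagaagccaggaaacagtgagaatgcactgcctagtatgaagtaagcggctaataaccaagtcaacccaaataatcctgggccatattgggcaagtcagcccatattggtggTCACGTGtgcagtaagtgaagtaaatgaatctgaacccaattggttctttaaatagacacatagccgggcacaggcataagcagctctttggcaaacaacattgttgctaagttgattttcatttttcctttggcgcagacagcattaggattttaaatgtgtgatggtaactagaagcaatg
Atg3: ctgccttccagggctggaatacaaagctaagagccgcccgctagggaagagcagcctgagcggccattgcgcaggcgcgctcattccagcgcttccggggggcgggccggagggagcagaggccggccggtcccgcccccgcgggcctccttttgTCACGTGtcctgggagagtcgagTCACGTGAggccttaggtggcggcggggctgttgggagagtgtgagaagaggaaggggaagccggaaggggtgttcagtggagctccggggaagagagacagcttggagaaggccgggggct
Atg5: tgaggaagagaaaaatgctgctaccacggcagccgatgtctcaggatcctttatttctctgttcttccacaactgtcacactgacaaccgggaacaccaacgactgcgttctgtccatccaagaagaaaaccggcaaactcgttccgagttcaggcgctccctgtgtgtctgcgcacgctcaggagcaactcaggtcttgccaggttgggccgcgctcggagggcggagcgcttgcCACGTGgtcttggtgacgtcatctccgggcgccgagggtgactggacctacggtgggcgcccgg
Atg14 and Atg7 are among the genes that rose with PP242, and Atg3 and Atg5 did not pass. Atg3 holds TCACGTG at 2 places, Atg14 and Atg7 at 1, and Atg5 holds the core alone. Such letters describe the window and say nothing of what binds there.

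The arrays were not alike, and this bears on each result below. On PP242 arrays 1 and 4, rapamycin array 3 and DMSO array 2 the dim probes were raised: the 75th percentile of the intensity was 7.12 to 51.1 times the 25th, against 261 to 419.8 times on the other 8, and 77.9% to 97.9% of probes were well above background, against 55.7% to 60.4%. The leading values are therefore from the 8 arrays (PP242 2 and 3, rapamycin 1, 2 and 4, DMSO 1, 3 and 4), with the fit of all 12 beside them. Among the 8, rapamycin 4 and DMSO 4 stood apart from their groups, with correlations of 0.978 to 0.980 with the other arrays of the group, against 0.997 for the remaining within-group pairs. On rapamycin 4, 25 of the 34 members were below the mean of rapamycin 1 and 2, 11 of them by over 0.5 on the log2 scale, and on DMSO 4, 21 of 34 were below the mean of DMSO 1 and 3, 6 of them by over 0.5. Values without these arrays (6 arrays, 2 a group) are given as well. Of 11 fibroblast markers, 11 were well above background on all 8 arrays, whereas 0 of 5 epithelial, 0 of 3 endothelial, 0 of 3 muscle and 0 of 3 neuronal markers were. Some of these were so on fewer arrays: Des and Rbfox3 on 5, Krt8 and Ckm on 3, and Cldn4 on 1. Of 4 blood cell markers, Cd3e and Csf1r were on all 8, at mean log2 levels of -4.93 and -2.95, Cd79a was on 1 and Ptprc on none.

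Levels are log2 intensities relative to the 75th percentile of their own array, so a level of 0 is that percentile, and a level of 1 probe is not set against that of another. Fold changes are differences of group means on this scale with the standard error (SE) of limma, and a gene was called when its Benjamini-Hochberg adjusted p over all genes tested was below 0.05. In a whole culture, fewer cells that express a gene and less RNA per cell cannot be told apart.

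With PP242, some of the autophagy genes rose, and most did not pass. Of the 34 genes, 10 were called higher and 1 lower than with DMSO on 8 arrays, against 12.9% of all genes called higher and 13% called lower. The 10 were Ulk2, Atg13, Atg14, Wipi1, Wdr45, Atg2a, Atg7, Atg10, Map1lc3a and Nbr1, and the 1 was Wipi2. The calls fell in all 6 roles. Around the lipid kinase 1 of 6 genes was called and in conjugation and LC3 processing 2 of 10, near the share of all genes. In the ATG8 family and among the cargo receptors it was 1 of 4 each, and 1 call among so few genes cannot be told from that share. The counts by role below are to be read against the same 12.9% and 13% of all genes. The median log2 fold change was 0.43 over the 34 members and -0.01 over all genes; the members' median was 0.18 on 12 arrays, where all genes stood at 0.38, and -0.66 with median centring of 12 arrays, where all genes stood at -0.43. On 12 arrays with quantile normalisation it was 0.27 and with the deposited table it was 0.22, with all genes at 0.02 in both. On all 12 arrays 0 of the 34 passed (limma; 6 had an unadjusted p below 0.05), against 0.392% of all genes called. Without rapamycin 3 alone, on 11 arrays, 10 were higher and 2 lower, against 23.1% of all genes called in either direction. On 6 arrays 22 were higher and 4 lower, against 26.4% of all genes called higher and 22.9% lower.

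**Figure D1:**
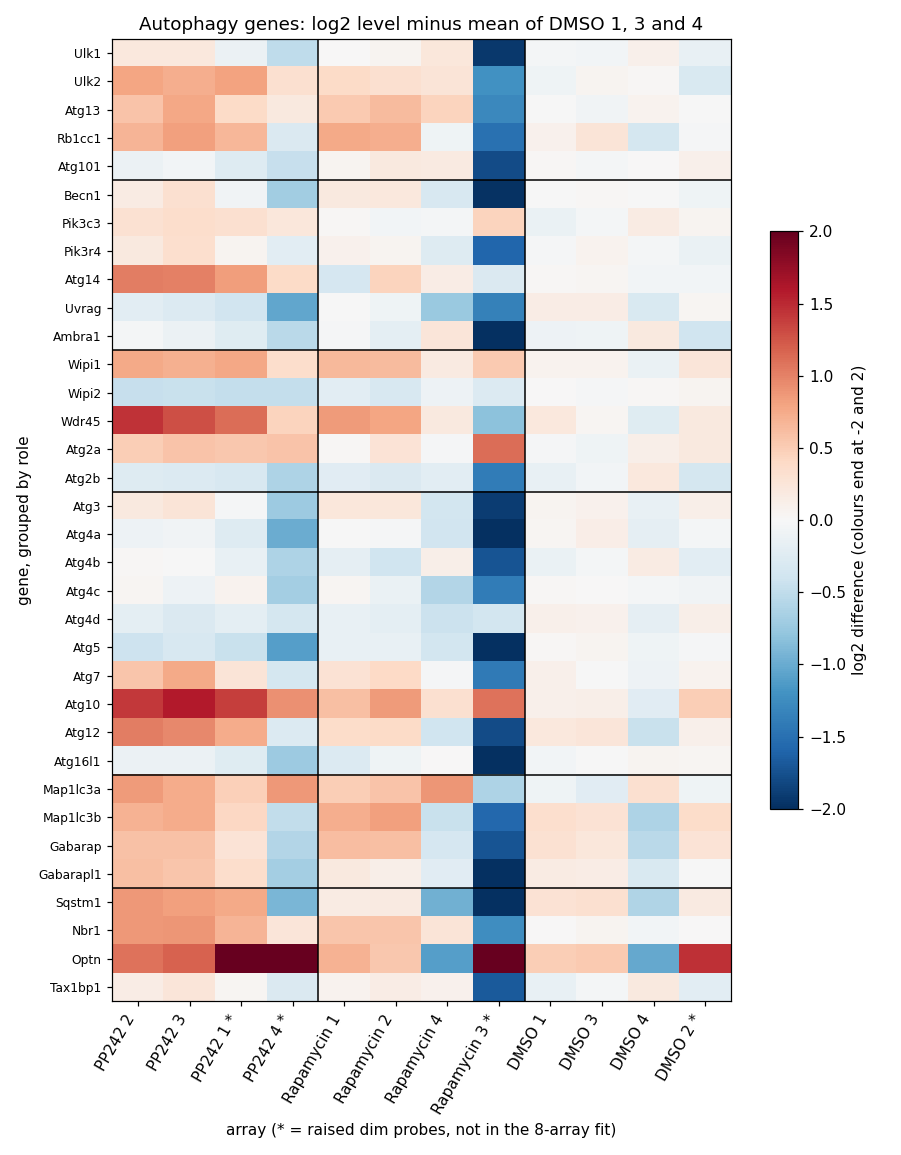
Each row is 1 of the 34 genes and each column 1 of the 12 arrays, and the colour gives the log2 level minus the gene's mean on DMSO 1, 3 and 4, with lines between roles and between groups. Ulk2, Atg14, Wdr45, Atg10 and Nbr1 are red on PP242 2 and 3. For Map1lc3b, Gabarap, Sqstm1 and Optn, rapamycin 4 is bluer than rapamycin 1 and 2, and DMSO 4 is bluer than DMSO 1 and 3. The raised array rapamycin 3 is blue for most genes.

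In the ULK initiation complex, 2 of 5 genes rose with PP242. The kinase gene Ulk2 had levels of -0.27 and -0.34 on the PP242 arrays 2 and 3, -0.68, -0.74 and -0.81 on the rapamycin arrays 1, 2 and 4, and -1.15, -1.01 and -1.04 on the DMSO arrays 1, 3 and 4. The 3 groups did not overlap and stood in the order PP242, rapamycin, DMSO. The log2 fold change of Ulk2 with PP242 against DMSO was 0.76 ± 0.09 (SE, adjusted p = 0.0026), a fold of 1.69, and a second Ulk2 probe, at 0.48 ± 0.15, was not called (adjusted p = 0.0627). Atg13, the subunit that links the kinase to the complex, had levels of -0.14 and 0.06 with PP242, -0.20, -0.09 and -0.27 with rapamycin, and -0.72, -0.78 and -0.64 with DMSO. Every treated array was above every DMSO array, and PP242 and rapamycin overlapped. Its log2 fold change with PP242 was 0.67 ± 0.11 (adjusted p = 0.0065), a fold of 1.60. Ulk1, the kinase that mTORC1 phosphorylates, had levels of 3.03 and 3.03 with PP242, 2.83, 2.87 and 3.04 with rapamycin, and 2.77, 2.76 and 2.92 with DMSO. The PP242 and DMSO values of Ulk1 did not overlap but lay close, and at 0.21 ± 0.11 (adjusted p = 0.206) the difference did not pass. The scaffold gene Rb1cc1 (0.75 ± 0.30) and Atg101 (-0.09 ± 0.09) did not pass either. On 12 arrays Ulk2 stood at 0.74 ± 0.36 (adjusted p = 0.613) and Atg13 at 0.49 ± 0.40 (adjusted p = 0.794).

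Of the 6 genes around the lipid kinase, which makes the phosphatidylinositol 3-phosphate (PI3P) that marks the growing membrane, 1 rose. Atg14, the subunit that brings the kinase to sites of autophagosome formation, had levels of 0.49 and 0.47 with PP242, -0.88, -0.09 and -0.39 with rapamycin, and -0.51, -0.49 and -0.60 with DMSO. The PP242 arrays were above all others, and the rapamycin values spanned those of DMSO. Its log2 fold change with PP242 against DMSO was 1.01 ± 0.22 (adjusted p = 0.0177), a fold of 2.02, and 0.82 ± 0.25 on 12 arrays (adjusted p = 0.251). A second Atg14 probe, at 0.85 ± 0.35, was not called on 8 arrays (adjusted p = 0.123). Becn1, the scaffold known as Beclin 1, had levels of 1.87 and 2.02 with PP242, 1.90, 1.91 and 1.39 with rapamycin, and 1.69, 1.72 and 1.69 with DMSO. The PP242 values of Becn1 lay above those of DMSO, rapamycin spanned the DMSO values and reached into those of PP242, and the PP242 difference, 0.24 ± 0.18 (adjusted p = 0.368), did not pass. The catalytic subunit Pik3c3 stood at 0.33 ± 0.11, its partner kinase Pik3r4 at 0.27 ± 0.13, the endosomal subunit Uvrag at -0.24 ± 0.26 and the Beclin 1 partner Ambra1 at -0.08 ± 0.16. None of these 4 passed by limma on 8 arrays, and Pik3c3 came nearest (adjusted p = 0.0772).

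Among the PI3P-binding and lipid transfer genes, 3 of 5 rose and 1 fell. Wdr45, which encodes WIPI4, a partner of ATG2, had levels of 2.49 and 2.32 with PP242, 1.89, 1.83 and 1.23 with rapamycin, and 1.24, 1.07 and 0.79 with DMSO. PP242 was above all other arrays, and rapamycin 4 fell within the DMSO values. Its log2 fold change was 1.37 ± 0.24 (adjusted p = 0.0081), a fold of 2.58. Wipi1 had levels of 1.19 and 1.14 with PP242, 1.08, 1.06 and 0.61 with rapamycin, and 0.50, 0.50 and 0.29 with DMSO, so that the 3 groups did not overlap. It rose by 0.74 ± 0.17 (adjusted p = 0.0217). Atg2a, one of the proteins that carry lipid between membranes, had levels of 0.12 and 0.19 with PP242, -0.36, -0.11 and -0.41 with rapamycin, and -0.41, -0.46 and -0.27 with DMSO. Only PP242 stood apart, with a log2 fold change of 0.53 ± 0.12 (adjusted p = 0.0228), and a second Atg2a probe, at 0.59 ± 0.19, was not called (adjusted p = 0.0686).

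Wipi2, whose protein recruits ATG16L1, was the member that fell. Its levels were 0.40 and 0.42 with PP242, 0.64, 0.54 and 0.76 with rapamycin, and 0.86, 0.84 and 0.89 with DMSO, again without overlap. The log2 fold change was -0.45 ± 0.10 (adjusted p = 0.0171), a level 1.37-fold lower with PP242. A second Wipi2 probe gave 0.05 ± 0.32 (adjusted p = 0.922), so the probes disagree in sign, and the mean of both probes was not called. Atg2b did not pass (-0.27 ± 0.12). On 12 arrays the values were 1.03 ± 0.39 for Wdr45, 0.59 ± 0.22 for Wipi1, 0.49 ± 0.27 for Atg2a and -0.48 ± 0.18 for Wipi2, with adjusted p from 0.363 to 0.712.

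**Figure D2:**
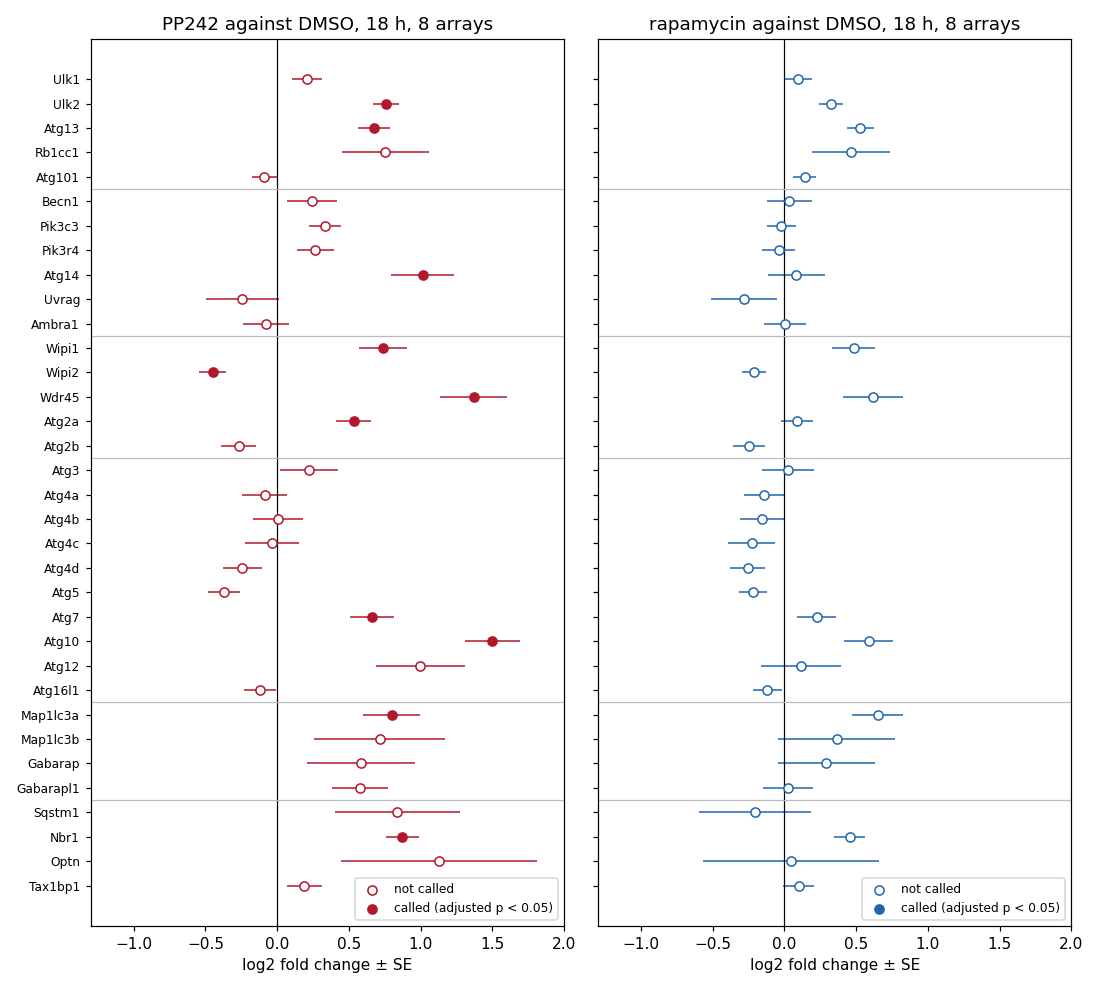
The left panel plots the log2 fold change of PP242 against DMSO and the right panel that of rapamycin against DMSO for the 34 genes on 8 arrays, with the SE as a bar and filled points for genes called at an adjusted p below 0.05. On the left 10 genes are filled above 0 and Wipi2 below it, and on the right 0 are filled; the comparisons share the DMSO arrays, and the left panel would have 0 filled points on 12 arrays.

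In the conjugation systems and LC3 processing, 2 of 10 genes rose, and the others were divided in sign. Atg10, the E2-like enzyme that joins ATG12 to ATG5, showed the largest change of the 34 on 8 arrays. Its levels were -0.59 and -0.42 with PP242, -1.40, -1.16 and -1.69 with rapamycin, and -1.90, -1.88 and -2.23 with DMSO, with no overlap between the groups. The log2 fold change of 1.50 ± 0.19 (adjusted p = 0.00296) is a fold of 2.83, and a second Atg10 probe gave 1.45 ± 0.16 (adjusted p = 0.00185). On 12 arrays it was 1.20 ± 0.26 (adjusted p = 0.0968). Atg7, the E1-like enzyme of both systems, had levels of -1.03 and -0.84 with PP242, -1.31, -1.19 and -1.61 with rapamycin, and -1.49, -1.60 and -1.69 with DMSO. The PP242 arrays of Atg7 were above all others and rapamycin overlapped DMSO. It rose by 0.66 ± 0.15 (adjusted p = 0.0229) on 8 arrays, but stood at 0.29 ± 0.41 (adjusted p = 0.794) on 12, below 0 there under 3 other scalings, and was not called on 11 arrays.

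Atg5, the acceptor of ATG12, lay on the other side. Its levels were 1.34 and 1.44 with PP242, 1.61, 1.62 and 1.40 with rapamycin, and 1.79, 1.82 and 1.68 with DMSO, so that both PP242 values were below the DMSO values. At -0.37 ± 0.11 (adjusted p = 0.0502) it just missed the threshold on 8 arrays, it passed there in the fit of all probes (adjusted p = 0.0493), with quantile normalisation and with the deposited table, and it was called on 11 arrays (-0.57 ± 0.17, adjusted p = 0.0374) and on 6 (-0.41 ± 0.06, adjusted p = 0.00634). Atg12, the ubiquitin-like protein itself, had a log2 fold change of 1.00 ± 0.31 (adjusted p = 0.0594) with its brightest probe, while its other 2 probes, at 1.28 ± 0.23 and 1.23 ± 0.22, passed in the fit of all probes (adjusted p = 0.00961 and 0.00877). The E2-like enzyme Atg3 (0.22 ± 0.20), the LC3-processing proteases Atg4a (-0.09), Atg4b (0.01), Atg4c (-0.04) and Atg4d (-0.24), and Atg16l1 (-0.12), which places the conjugation on the membrane, did not pass. The probes of Atg3, Atg4b and Atg4c differed in sign, and none of them was called on 8 arrays.

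In the ATG8 family 1 of 4 genes rose on 8 arrays. Map1lc3a, which encodes LC3A, had levels of 2.21 and 2.10 with PP242, 1.85, 1.92 and 2.24 with rapamycin, and 1.26, 1.13 and 1.67 with DMSO. The treated arrays lay above the DMSO arrays and overlapped each other. Its log2 fold change with PP242 was 0.80 ± 0.20 (adjusted p = 0.0282), a fold of 1.74, and 0.76 ± 0.32 on 12 arrays (adjusted p = 0.506). Map1lc3b, which encodes LC3B, had levels of 5.08 and 5.12 with PP242, 5.11, 5.20 and 3.94 with rapamycin, and 4.72, 4.67 and 3.77 with DMSO. The low values of rapamycin and DMSO were both on their array 4. On 8 arrays the PP242 difference of Map1lc3b was 0.72 ± 0.46 (adjusted p = 0.31), and without the 2 arrays 4 it was 0.41 ± 0.06 (adjusted p = 0.00741). Gabarap, at 0.59 ± 0.37, and Gabarapl1, at 0.58 ± 0.19, did not pass on 8 arrays and were called on 6 arrays at 0.32 ± 0.06 and 0.42 ± 0.06. The second Gabarapl1 probe passed on 8 arrays (0.90 ± 0.23, adjusted p = 0.0319).

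**Figure D3:**
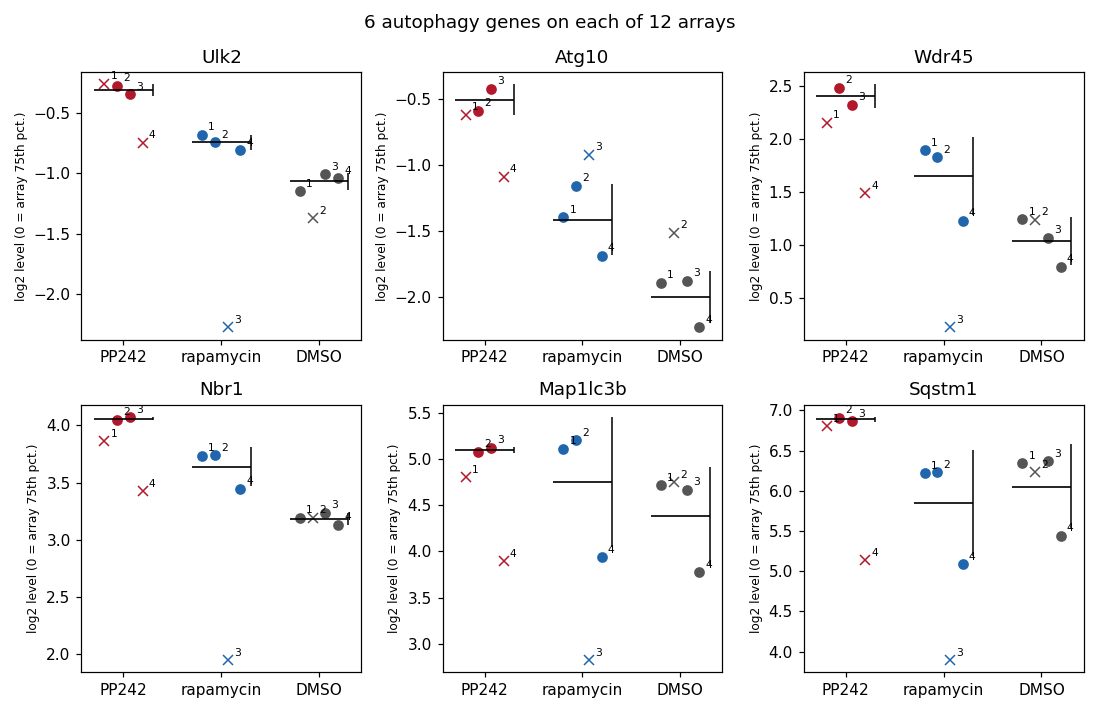
Each panel plots the log2 level of 1 gene on the 12 arrays, with filled circles for the 8 arrays of the leading fit, crosses for the raised arrays, replicate numbers beside the points, and lines for the mean ± SD over the filled circles. Among the filled circles Ulk2 and Atg10 separate the 3 groups and Wdr45 and Nbr1 place PP242 highest. With the crosses, rapamycin overlaps both other groups in these 4 genes (Atg10 is at -0.92 on rapamycin 3 and -1.09 on PP242 4). PP242 and DMSO do not overlap in them, though none of the 4 passed on 12 arrays. Map1lc3b and Sqstm1 are low on array 4 of each group.

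Of 4 cargo receptors, Nbr1 rose with PP242. Nbr1, which binds ubiquitinated cargo and LC3, had levels of 4.05 and 4.07 with PP242, 3.73, 3.74 and 3.44 with rapamycin, and 3.19, 3.23 and 3.13 with DMSO. The 3 groups did not overlap. Its log2 fold change was 0.87 ± 0.12 (adjusted p = 0.00364), a fold of 1.83, the other 2 Nbr1 probes gave 0.90 ± 0.10 and 1.03 ± 0.11, and on 12 arrays it was 0.66 ± 0.39 (adjusted p = 0.748). Sqstm1, which encodes the receptor p62, had levels of 6.91 and 6.87 with PP242, 6.22, 6.23 and 5.09 with rapamycin, and 6.34, 6.37 and 5.44 with DMSO. Both PP242 arrays were above the rest, but rapamycin 4 and DMSO 4 were about 1 unit below their groups. The difference of Sqstm1 was 0.84 ± 0.44 on 8 arrays (adjusted p = 0.217) and 0.53 ± 0.05 on 6 arrays (adjusted p = 0.00223). Optn, the receptor optineurin, did not pass on 8 arrays (1.13 ± 0.68, adjusted p = 0.287). Tax1bp1, a receptor that also binds ubiquitin, stood at 0.19 ± 0.12 with probes that differed in sign. On 6 arrays all 4 receptors were called higher, where 26.4% of all genes were. That fit has 2 arrays a group, and the arrays left out, on which Sqstm1 and Optn were low, were chosen after their values were seen.

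The 2 PP242 arrays left out of the leading fit did not choose the calls, though the DMSO arrays they are set against did. On PP242 1 all 10 of the genes called higher were above each of the 3 DMSO arrays, and on PP242 4, 9 of 10 were, with Atg7 as the exception. Over all 34 members, PP242 1 placed 18 above and 12 below the DMSO range and PP242 4 placed 11 above and 20 below. The same counts over all genes were not made, so these have no share to be read against and are no check of the calls. These arrays have raised dim probes, and the part of that in these positions was not tested. Slide 1 is the one slide that holds PP242 and DMSO arrays of the 8. Its arrays are among those that made the calls, so that the signs there are no separate check, and the members' median difference on it was 0.37, with 0.01 for all genes. With slide as a block, 2 of the 11, Ulk2 and Atg10, were called, and all 11 kept their sign.

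**Figure D4:**
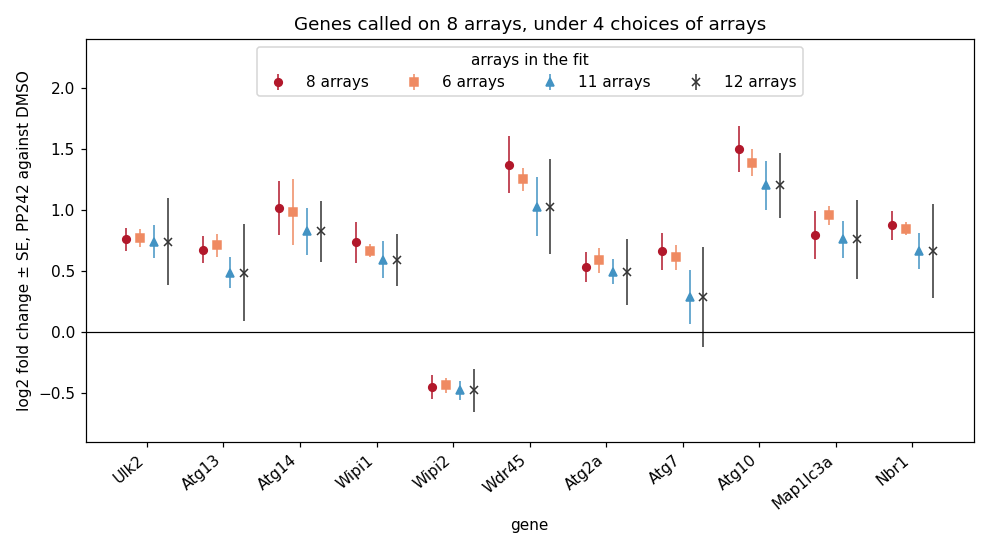
For the 11 genes called on 8 arrays, the log2 fold change of PP242 against DMSO is plotted with its SE as fitted on 8, 6, 11 and 12 arrays. All points of the 10 genes stay above 0 and those of Wipi2 below it, and Atg7 runs lowest of the 10 at 0.29 on 11 and 12 arrays. The bars are longest on 12 arrays, where 0 genes passed, for each gene other than Atg14. With median centring of 12 arrays 8 of the 11 change sign, and the median of all genes was -0.43 there.

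With rapamycin, no member passed on 8 arrays. By limma 0 of the 34 were called against DMSO, with 0.0203% of all genes called higher and 0.00509% called lower, and 8 of the 34 had an unadjusted p below 0.05 (2580 of 19664 genes did). The members' median log2 fold change was 0.06, and it was -0.08 with median centring and -0.30 on 12 arrays, where the medians of all genes were -0.02, -0.16 and 0.17. The 4 lowest adjusted p-values by limma, from 0.132 to 0.225, belonged to Atg13 (0.53 ± 0.10), Nbr1 (0.45 ± 0.11), Ulk2 (0.32 ± 0.08) and Map1lc3a (0.65 ± 0.18). For each of these 4 genes, all 3 rapamycin arrays lay above all 3 DMSO arrays. The same held for Wipi1, Atg10 and Atg101, and for Wipi2, Atg2b and Atg5 all 3 lay below. The share of all genes separated in this way was not counted. The 4 were picked by their p-values on these same arrays, so this is no separate support for a rise that did not pass. The DMSO arrays are the same as in the PP242 comparison, so the comparisons are not independent. The 95% interval of Ulk1 ran from -0.13 to 0.32, that of Becn1 from -0.34 to 0.41, that of Atg5 from -0.45 to 0.02, that of Map1lc3b from -0.62 to 1.34 and that of Sqstm1 from -1.14 to 0.73. On all 12 arrays 0 were called (1 with an unadjusted p below 0.05), where 0% of all genes were, and on 11 arrays 0 were, with 0.0385% of all genes called.

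The rapamycin result depended on the arrays numbered 4. Without rapamycin 4 and DMSO 4, 9 of the 34 genes were called higher and 0 lower, against 6.99% of all genes called higher and 4.24% called lower. These were Atg13 (0.61 ± 0.09), Rb1cc1 (0.57 ± 0.09), Wipi1 (0.57 ± 0.05), Wdr45 (0.70 ± 0.10), Atg10 (0.61 ± 0.11), Map1lc3a (0.69 ± 0.08), Map1lc3b (0.47 ± 0.06), Gabarap (0.34 ± 0.06) and Nbr1 (0.52 ± 0.05), with adjusted p from 0.0183 to 0.0449. That fit has 2 arrays a group, and the arrays left out were chosen after their values were seen. Within slides, the members' median was 0.16 on slide 1 and -0.04 on slide 3, with -0.05 and 0.02 for all genes.

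PP242 and rapamycin, at doses that differ, were set against each other directly. On 8 arrays 3 of the 34 genes were higher with PP242 and 0 lower, against 6.8% of all genes called higher and 7.08% called lower. Atg14 differed by 0.93 ± 0.22 (adjusted p = 0.0386), Atg10 by 0.91 ± 0.19 (adjusted p = 0.0272) and Ulk2 by 0.43 ± 0.09 (adjusted p = 0.0291). All 3 calls were lost, leaving 0, with the slide block, with the replicate block and when only the groups compared were fitted. In the fit of all probes, the second probes of Atg14 (0.45 ± 0.35, adjusted p = 0.452) and Ulk2 (0.26 ± 0.15, adjusted p = 0.328) did not pass. The second Atg10 probe did (0.76 ± 0.16, adjusted p = 0.0289), as did 2 of 3 Nbr1 probes, at 0.51 ± 0.10 and 0.56 ± 0.11 (adjusted p = 0.0223 and 0.0238), though not the one that stands for the gene. The median of the members was 0.23, with 0.02 for all genes. Sqstm1 differed by 1.04 ± 0.44 (adjusted p = 0.173), with a 95% interval that reached just below 0, and Map1lc3a by 0.15 ± 0.20, from -0.33 to 0.62. On 12 arrays 0 passed (2 with an unadjusted p below 0.05), where 0% of all genes did. On 11 arrays Atg2a alone did (0.46 ± 0.11, adjusted p = 0.0303), against 10.9% of all genes. On 6 arrays 10 were higher and 1 lower, against 19.5% and 16.4% of all genes, with Sqstm1 at 0.66 ± 0.05 and Atg12 at 0.62 ± 0.05 among those higher and Atg5, at -0.23 ± 0.06, the one lower. Within slides the members' median was 0.12 on slide 1 and 0.13 on slide 2, with 0.06 and -0.01 for all genes.

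Another 42 genes of the pathway were listed, and 38 of them were measured. With PP242 against DMSO on 8 arrays 9 were called higher and 3 lower, against 12.9% of all genes called higher and 13% called lower, and the median of the 38 was 0.28. Of 12 further receptors 3 rose and 1 fell, of 8 genes of fusion with the lysosome 4 rose, and of 18 further core genes and regulators 2 rose and 2 fell, to be read against the same shares of all genes. Calcoco1, a receptor for the endoplasmic reticulum, rose by 2.30 ± 0.10 (adjusted p = 0.000418), and Ccpg1, also a receptor for that organelle, by 1.58 ± 0.20 (adjusted p = 0.00297). Both were called on 12 arrays too, at 2.07 ± 0.27 (adjusted p = 0.0173) and 1.41 ± 0.23 (adjusted p = 0.0303). Tecpr1, a tether of autophagosomes and lysosomes, rose by 1.03 ± 0.19 (adjusted p = 0.0107). Sesn2, a leucine sensor that inhibits mTORC1 signalling, fell by 1.41 ± 0.14 (adjusted p = 0.00136), and Bnip3, a mitophagy receptor induced by hypoxia, fell by 1.22 ± 0.13 (adjusted p = 0.00168).

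With rapamycin 0 of the 38 were called on 8 arrays, where Calcoco1 stood at 0.78 ± 0.09 and Bnip3 at -1.12 ± 0.12 (both adjusted p = 0.0532). Against rapamycin, 5 of the 38 were higher with PP242 and 1 lower, where 6.8% of all genes were higher and 7.08% lower. Calcoco1 was higher by 1.52 ± 0.10 (adjusted p = 0.00103), the stress-induced gene Trp53inp1 by 1.25 ± 0.26 (adjusted p = 0.0273), the autophagy inhibitor Rubcn by 0.38 ± 0.08 (adjusted p = 0.0293) and Tfeb by 0.59 ± 0.13 (adjusted p = 0.0341), and Sesn2 was lower (-0.60 ± 0.14, adjusted p = 0.0413). With PP242 against DMSO, 2 of the 38 were called on 12 arrays, against 0.392% of all genes. On 11 arrays 3 were higher and 5 lower, near the 23.1% of all genes called there, and on 6 arrays 19 were higher and 7 lower, against 26.4% and 22.9% of all genes.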

How the data were processed

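RNA of 12 cultures was hybridised to one-colour Agilent mouse arrays. The deposited intensity values are background-subtracted processed signals from Agilent Feature Extraction 10.5.1.1, per the file headers, whereas the submitters' processing notes name version 10.1. The deposited log2 table, in which the authors had normalised the same arrays (column medians 8.54 to 8.56), was used as an alternative, and the labels do not say how it was made. Flags for background and outliers are as deposited, per the file headers.

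From the intensities, log2 values were taken minus the 75th percentile of each array. Outlier spots (1.52% of values) were left out, spots of a probe were averaged, a probe was kept if at least 2 of 8 arrays (4 of 12) had it well above background, and the brightest probe stood for a gene. The 8 arrays are those with a ratio of the 75th to the 25th percentile above 100. Groups were compared with limma 3.58.1 in R 4.3.3 (lmFit, eBayes, Benjamini-Hochberg over all genes), after tests on simulated data. The 12-array fit was planned, and the 11-array and 6-array fits were added after seeing the data. Where the labels do not show separate cultures, p-values measure the spread between these samples only. The number of arrays limits the precision.

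The members, lists and the 8 arrays were chosen with earlier results of these data known. All members were named. A value on each of the 8 arrays is given for those called in any comparison on 8 arrays and for Ulk1, Becn1, Atg5, Map1lc3b and Sqstm1. Of the other pathway genes, at most 5 called ones per comparison were named by adjusted p (Bnip3 and Calcoco1 with rapamycin, not called, were taken up from the PP242 comparison). Promoters came from RefSeq (GRCm38.p6). Alternatives were other normalisations, background corrections, filters, probe rules, array weights, blocks and leaving out each array.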

Additional observations from a re-analysis of the deposited data

Results flagged for a closer look

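In each group of 4 arrays, a gene's highest or lowest array was looked at for a gap to the next array that was large for the group's range. Of 102 groups, 19 held such an array, and some are expected by chance. Rapamycin 3, an array with raised dim probes, was the lowest of its group at log2 levels of 0.88 for Ulk1, -2.28 for Ulk2, -2.0005 for Atg13, 1.49 for Atg101, -1.48 for Atg2b, -0.65 for Atg5, -0.34 for Atg16l1, 1.95 for Nbr1 and 1.36 for Tax1bp1, and the highest at -0.45 for Pik3c3. PP242 4, also with raised dim probes, was the lowest at 0.97 for Rb1cc1, 0.78 for Wipi1, -0.70 for Atg2b, 0.65 for Atg5 and 5.14 for Sqstm1. DMSO 4 was the lowest at -1.51 for Atg4d, 3.77 for Map1lc3b, 3.87 for Gabarap and 5.44 for Sqstm1.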

How the results depend on the processing

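With PP242 against DMSO, 11 genes were called on 8 arrays. The count was 0 on all 12 arrays, and there also 0 with quantile normalisation, median centring, the slide block or the replicate block, 1 with the deposited table and 23 with array weights. On 8 arrays it was 7 with median centring, 7 with no filter, 2 with the slide block, 8 with the replicate block (6 of the 11 kept, Atg7, Wipi2, Atg13, Atg2a and Atg14 lost, Atg12 and Optn gained), 22 with array weights, 26 without both arrays 4, and 3 to 15 with 1 array left out (4 without PP242 2 and 3 without PP242 3, where the lone PP242 array is assumed to vary like the other groups). Nbr1, Ulk2 and Atg10 were called with each of the 8 arrays left out. With rapamycin the count of 0 became 9 with array weights, 10 with array weights on 12 arrays and 9 without both arrays 4, and stayed 0 with any 1 array left out. For PP242 against rapamycin, 3 became 0 on 12 arrays (also with quantile normalisation, median centring, the deposited table, the slide block or the replicate block), 0 on 8 arrays with median centring, no filter, only the groups compared, the slide block or the replicate block, 1 on 11 arrays, 5 with the filter on all 8 arrays or an intensity trend, 6 with the deposited table, 14 with array weights, 17 with array weights on 12 arrays, 11 without both arrays 4, and 0 to 4 with 1 array left out. Signs turned with PP242 against DMSO on 12 arrays with median centring, at -0.0804 for Map1lc3a, -0.55 for Atg7, -0.17 for Nbr1, -0.10 for Ulk2, -0.25 for Wipi1, -0.35 for Atg13, -0.34 for Atg2a and -0.0147 for Atg14, and Atg7 also stood at -0.33 with quantile normalisation and -0.10 with the deposited table. With median centring of 12 arrays the median of all genes was -0.43, and of these turned genes Atg7 alone lay below it. The cause of the turned signs was not tested. The labels do not say that the replicate numbers pair the arrays, and the data do not settle it. Deviations of arrays with the same number correlated at 0.64 and 0.76 for numbers 1 and 4, and at -0.30 and 0.10 for numbers 2 and 3. Arrays with unlike numbers reached similar values, as DMSO 3 with rapamycin 2 at 0.57. Deviations of the 2 PP242 arrays mirror each other, so the values for numbers 2 and 3 tell little. The numbers were not taken as pairs. The fits on 11 arrays and without both arrays 4 were added after seeing the data.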
